A study of Mus musculus with 24 samples.

Results

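Lysophosphatidic acid (LPA) changed the transcriptome of wild-type (WT) bone marrow-derived macrophages within 4 h, and the size of the change differed between replicates. The response was read from 8 of the 24 libraries of the series: 4 WT libraries with LPA (10 µM, 4 h) and 4 WT libraries left untreated (Cont). The cells came from male C57BL/6 mice, were grown from marrow with M-CSF and were used on day 7 of culture. Of the other 16 libraries, 8 came from WT and GPR35-deficient (KO) cells given LPS (10 ng/mL), 4 from KO cells given LPA and 4 from untreated KO cells. The libraries were chosen by these labels and not by any measured value. Untreated cells served as the control and the labels name no vehicle, so an effect of LPA and one of its carrier cannot be told apart. The labels give no age and do not say whether the 4 replicates came from separate mice or cultures. The p-values thus measure only the spread between libraries, which was estimated over all 24.

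LPA is a small phospholipid, formed outside cells mainly by the enzyme autotaxin, that acts through G protein-coupled receptors. Macrophages answer danger and microbial signals with cytokines, chemokines and a shift toward glycolysis, and answer IL-4 and IL-13 with a different programme, alternative activation, marked by the mannose receptor and other lectins. The series asked whether GPR35, another G protein-coupled receptor, carries the LPA signal.

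The LPA libraries held 31985119 to 41398499 counts and the Cont libraries 35496347 to 46697165, with LPA replicate 3 the shallowest of these 8. All 11 macrophage markers were measured in each of them: Lyz2, the lysozyme gene, lay between 20781 and 25714 CPM (counts scaled by library size and composition to a common total), and Csf1r, the M-CSF receptor gene, between 4064 and 5637 CPM. Cd14, Spi1 and Mertk, further macrophage genes, were the 3 of the 11 that changed with LPA. Gpr35 was low in WT cells, at 2.78, 1.61, 2.53 and 1.34 CPM in LPA replicates 1 to 4, against 2.33, 2.53, 2.77 and 2.78 CPM in Cont replicates 1 to 4. In KO cells it was 0.198, 0, 0.146 and 0.0951 CPM in LPA libraries, against 0.178, 0.0529, 0.0947 and 0.205 CPM in Cont libraries. Its ranges overlapped in WT, and no change with LPA was called there (log2 change -0.33 ± 0.23, edgeR adjusted p = 0.25). Below, 4 values in a row are replicates 1 to 4.

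A gene was called changed when its adjusted p in edgeR's quasi-likelihood test, corrected over all 11590 genes of the table, was below 0.05. By that rule 5165 genes (44.6%) changed, with 2723 (23.5%) higher and 2442 (21.1%) lower with LPA. Fewer cells of a type and less RNA per cell cannot be told apart in such bulk libraries. Most changes were small. Of the called genes 1469 moved by less than 0.25 on the log2 scale, 2104 (40.7%) by 0.25 to 0.5 and 1268 by 0.5 to 1. Another 297 moved between 2-fold and 4-fold, and 27 moved at least 4-fold, 20 of them up and 7 down. Together 324 genes (2.8% of those tested) moved at least 2-fold, 202 (1.74%) up and 122 (1.05%) down. In 4046 genes (34.9%) the 4 LPA and the 4 Cont libraries did not overlap. Scaled by total counts instead, 2077 rose and 3082 fell, so the split between small rises and falls depended on the scaling. The median log2 change of all genes was -0.01 with the scaling used here and -0.06 with totals.

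**Figure D1:**
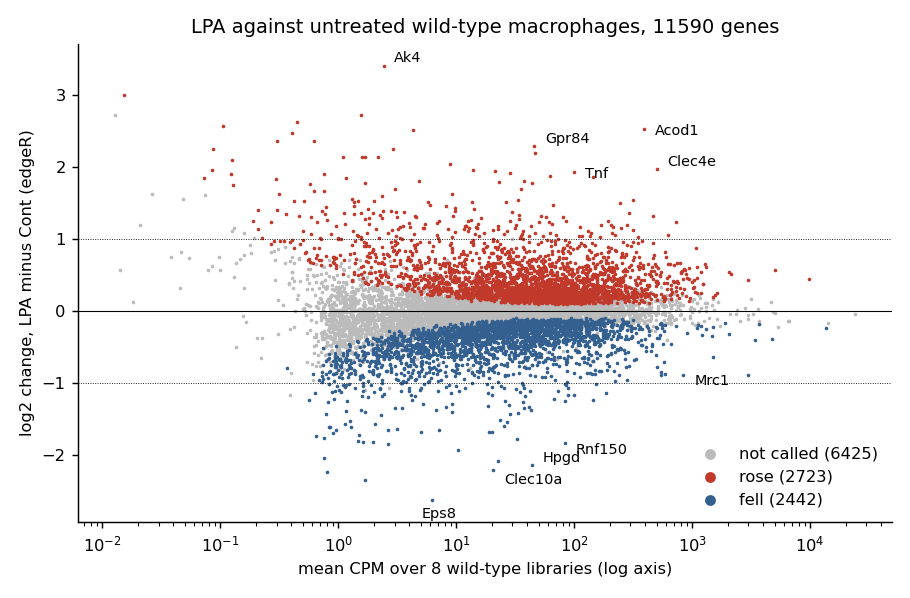
Log2 change (LPA minus Cont, vertical axis) of 11590 genes against their mean CPM over the 8 WT libraries (log horizontal axis), with called rises in red, called falls in blue and genes not called in grey. Called genes reach down to small changes where expression is high, and dotted lines mark a 2-fold change.

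Calls and sizes followed abundance. Genes were cut into 4 equal classes by mean log2 CPM. In the lowest class 34.1% of genes were called and 6.11% were called with a change of at least 2-fold, while in the highest class 53.7% were called and 1.38% moved 2-fold. The median standard error of a log2 change was 0.178 in the lowest class and 0.0637 in the highest, so small changes could be called there and not among scarce transcripts. The direction also differed with abundance, with 379 rises and 610 falls in the lowest class, and 1024 rises and 532 falls in the highest.

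The replicates did not respond equally. For each replicate number, genes were called without both of its WT libraries, and its LPA and Cont libraries were then placed on a line from the mean of the other Cont libraries (position 0) to the mean of the other LPA libraries (position 1). LPA replicates 1 to 4 stood at 1.24, 1.38, 0.410 and 0.864, against 0.168, 0.0481, -0.118 and 0.0016 for Cont replicates 1 to 4. Each on its own line, all 4 LPA libraries thus stood higher than any Cont library, and LPA replicate 3 stood nearer to the Cont mean than to the LPA mean. The lines and their genes differed between replicate numbers, so the positions are not on 1 common scale. For replicates 1, 2 and 4 the LPA mean included the weaker replicate 3, which tends to raise their positions. Replicate 3 was set against the stronger replicates alone. Replicate 3 went the same way as the other 3 in 89.7% of the 5413 genes called without it, with a median signed log2 difference of 0.20, where the other 3 had 0.394. Its rises and falls were both small, with medians of 0.20 and -0.20, where the others had 0.37 and -0.42. In replicates 1, 2 and 4 the share with the same sign was 98.7%, 99.8% and 97.6%, over 3822, 3118 and 4113 genes called without each. These shares thus rest on different and smaller gene sets than that of replicate 3. These positions are descriptions without a test. Under other scalings, another prior count, thinned counts and other gene sets, the position of LPA replicate 3 stayed between 0.402 and 0.415.

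**Figure D2:**
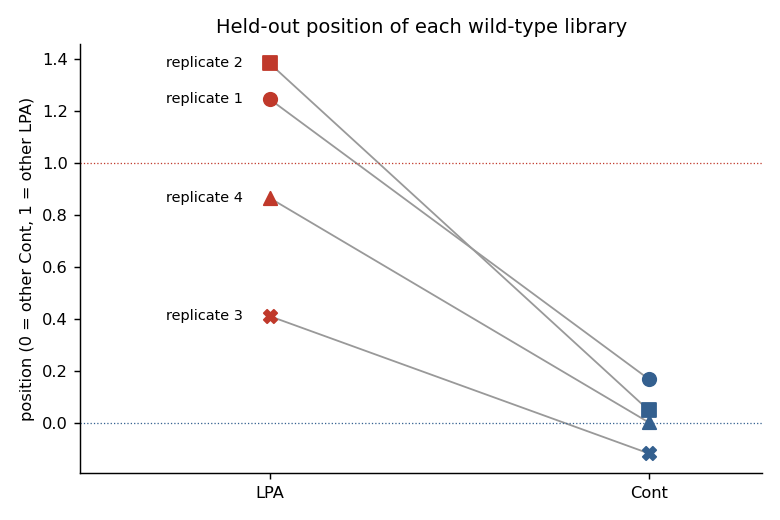
Position of each left-out WT library (vertical axis) between the other Cont libraries (0) and the other LPA libraries (1), with lines joining the LPA (red) and Cont (blue) libraries of 1 replicate number. LPA replicates 1 and 2 lie above 1, replicate 4 at 0.864 and replicate 3 at 0.410, while the Cont libraries lie between -0.118 and 0.168. Each replicate number has its own reference libraries and genes, so the positions do not share 1 scale.

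Spread among the LPA libraries was larger than among the Cont libraries. The median standard deviation of log2 CPM was 0.141 in LPA and 0.0818 in Cont libraries over all genes, and it was larger in LPA for 77.8% of genes. Among genes that rose at least 2-fold it was 0.421 in LPA and 0.20 in Cont, and among those that fell at least 2-fold it was 0.565 in LPA and 0.221 in Cont. LPA replicate 3 had the lowest LPA level in 76.2% of those rises and the highest in 94.3% of those falls. Counted the same way, by the direction of each gene's change, the share was 60.7% over all genes and 51.4% in genes not called. These shares rank the LPA libraries alone, with no Cont value subtracted. Over the 324 genes the median change in the direction of the call was 1.37, 1.53, 0.846 and 1.20 in replicates 1 to 4. Taken replicate by replicate, 280, 311, 109 and 236 of the 324 moved at least 2-fold, and 319 had the same sign in all 4. Of the others, 4 went against the call in replicate 3 and 1 in replicate 4, all of them rises. Without LPA replicate 3 the number of genes called at least 2-fold was 516, and without LPA replicate 2 it was 247. Without both libraries of replicate 2, the number of called genes was 3118, and without both of replicate 3 it was 5413. LPA replicate 3 had the fewest counts (31985119) and the highest scaling factor of the LPA libraries (1.12, the others 1.06 to 1.08, Cont 1.11 to 1.14). With all libraries thinned to the same depth its position was 0.415, and the part of the scaling factor was not tested.

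Replicate 3 was weaker by different amounts from gene to gene. In 146 genes called without it, whose other 3 replicates all moved at least 2-fold the same way, its change divided by the mean of the others had a median of 0.559 (0.585 in 89 rises and 0.531 in 57 falls). The ratio was below 0.5 in 52 genes and at least 1 in 1, and none went the other way. The genes were chosen for large changes in the other 3 replicates and not in replicate 3, so the choice itself partly lowers these ratios. The like ratio was not computed for the other replicates. The smallest ratio belonged to Hspa1b, which encodes an inducible heat shock protein, at 6.65, 3.90, 1.67 and 4.50 CPM with LPA, against 2.71, 1.83, 1.61 and 2.03 CPM in Cont. Its LPA and Cont values in replicate 3 were nearly equal, and the ratio was 0.0447. Reads of Hspa1b and its near-identical neighbour Hspa1a depend on how the counting tool shared them. The call of Hspa1b was lost under 6 alternatives. Among them were leaving out LPA replicate 1 (edgeR adjusted p = 0.11) and thinned counts (edgeR adjusted p = 0.066). Maff, a small Maf transcription factor gene, had 9.36, 8.53, 3.81 and 7.68 CPM with LPA and 3.10, 3.77, 3.17 and 3.18 CPM in Cont, a ratio of 0.197. The transcription factor gene Ets2 had 111, 123, 59.4 and 68.2 CPM with LPA and 34.8, 42.7, 46.7 and 32.1 CPM in Cont, and its ratio was 0.241. Low ratios among falls were those of Tfdp2, whose product pairs with E2F factors (0.224), the ubiquitin ligase gene Fbxo32 (0.237) and the transcription factor gene Sox4 (0.256). For Tfdp2 the LPA values were 5.44, 5.33, 16.7 and 8.85 CPM and the Cont values 16.6, 16.1, 20.8 and 18.4 CPM, so replicate 3 with LPA came within the Cont range.

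At the other end, the change in replicate 3 came closest to the mean of the others in a few genes and reached it in 1. Bcl2a1a, a survival gene of the BCL2 family, had 14.2, 15.8, 9.29 and 14.5 CPM with LPA and 5.74, 6.26, 3.49 and 5.96 CPM in Cont. Replicate 3 was the lowest of both groups, and its ratio was 1.07. Bcl2a1a has near-identical copies, so its counts are uncertain. Abcg3, a transporter of the ABC family, had 4.58, 4.73, 4.23 and 4.35 CPM with LPA and 9.97, 10.9, 8.91 and 8.82 CPM in Cont, a ratio of 0.963. The 4 LPA values of Abcg3 lay within 0.5 CPM of each other. Further ratios were 0.953 for the collagen gene Col19a1, 0.941 for the caveolin gene Cav1, 0.844 for the formyl peptide receptor gene Fpr2 and 0.839 for Txlnb. These 12 genes were picked as the 6 lowest and 6 highest ratios, so the ratios are descriptions.

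**Figure D3:**
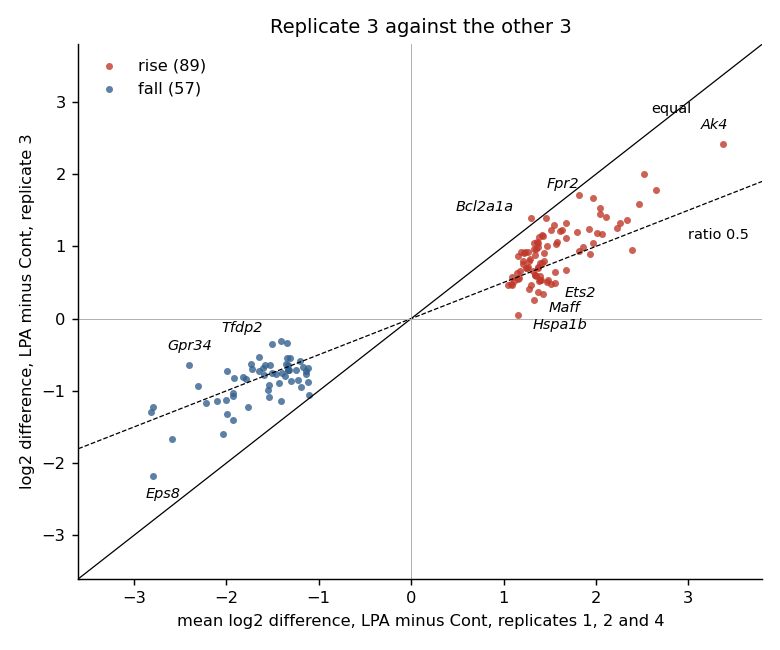
Log2 difference LPA minus Cont in replicate 3 (vertical axis) against the mean of replicates 1, 2 and 4 (horizontal axis) for 146 genes that moved at least 2-fold in each of those 3 and were called without replicate 3. The solid line marks equal differences and the dashed line a ratio of 0.5, and 52 genes fall short of the dashed line.

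Among the 15 largest rises were receptors that sense nutrients, formylated peptides, adenosine and glycolipids. The gene Gpr84, whose receptor binds fatty acids of medium chain length (chr15:103308233-103310670, GRCm38.p6), had 83.3, 102, 50.1 and 67.3 CPM with LPA, against 14, 16.7, 16.6 and 14.5 CPM in Cont. Its lowest LPA value, replicate 3, was still far above its highest Cont value. The genes of the formyl peptide receptors Fpr1 and Fpr2 lie close together on chromosome 17. Fpr1 had 13.1, 18.8, 9.46 and 15.5 CPM with LPA and 4.12, 3.77, 3.74 and 2.10 CPM in Cont (log2 change 2.04 ± 0.20, edgeR adjusted p = 3.9e-07), and Fpr2 had 36.3, 51.4, 37.0 and 56.0 CPM with LPA and 12.5, 12.6, 11.7 and 10.9 CPM in Cont. For Fpr2 replicate 4 was the highest of the LPA libraries and replicates 1 and 3 were the lowest. Adora2a, the adenosine A2A receptor gene, was scarce at 3.53, 4.65, 1.86 and 4.28 CPM with LPA and 0.916, 0.819, 0.742 and 0.752 CPM in Cont. Clec4e, which encodes the glycolipid sensor Mincle, was an abundant transcript, with 806, 1116, 597 and 662 CPM in LPA and 191, 201, 225 and 195 CPM in Cont libraries (log2 change 1.97 ± 0.16, edgeR adjusted p = 1.6e-08). Tarm1, an activating receptor gene of myeloid cells, had 8.38, 10.4, 3.67 and 6.57 CPM with LPA and 1.37, 1.52, 0.866 and 1.28 CPM in Cont. In all 6 receptor genes every LPA library lay above every Cont library, a separation that the rule for naming them required.

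Secreted factors and enzymes made up most of the other large rises. Cxcl2, a neutrophil chemoattractant, had 103, 106, 30.6 and 63.7 CPM with LPA, against 15.6, 17.7, 15.8 and 17.5 CPM in Cont, and replicate 3 had the lowest LPA value. Il1rn, the gene of the IL-1 receptor antagonist, had 166, 123, 45.2 and 56.3 CPM with LPA and 28.0, 27.0, 24.3 and 26.9 CPM in Cont, with replicates 3 and 4 both well below replicates 1 and 2. The cytokine gene Tnf had 195, 204, 78.5 and 149.6 CPM with LPA and 43.1, 47.6, 34.9 and 39.5 CPM in Cont, and LPA replicate 3 was again the lowest. Acod1, whose enzyme makes itaconate, was the most abundant enzyme transcript of this group at 821, 943, 336 and 567 CPM with LPA and 129, 128, 97.7 and 108 CPM in Cont. Ak4, a mitochondrial adenylate kinase gene, had the largest log2 change of the group and was scarce, at 4.81, 6.59, 2.56 and 3.76 CPM with LPA and 0.371, 0.438, 0.421 and 0.426 CPM in Cont. Its log2 change was 3.41 ± 0.30 (edgeR adjusted p = 6.0e-08). Ptges, which makes prostaglandin E2, had 23.4, 28.7, 14.5 and 21.8 CPM with LPA and 6.28, 5.12, 4.97 and 6.41 CPM in Cont. The cystine transporter gene Slc7a11 had 37.0, 45.3, 23.0 and 29.3 CPM with LPA and 8.77, 7.80, 8.34 and 10.1 CPM in Cont, and the transglutaminase gene Tgm2 had 286, 302, 155 and 167 CPM with LPA and 54.4, 59.4, 68.1 and 68.3 CPM in Cont. The remaining 1 of the 15, Lad1, which encodes the basement membrane protein ladinin, averaged 4.77 ± 1.80 CPM with LPA and 1.01 ± 0.257 CPM in Cont (SD, n = 4 each). All 15 rises had log2 changes between 1.86 and 3.41. They were ranked among called genes with an official symbol, at least 2 CPM and separated groups. Larger rises outside that rule, such as that of Egln3 below, are not among them.

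The 15 largest falls under the same rule held a prostaglandin-degrading enzyme, a lectin, receptors and RNA-binding proteins. LPA replicate 3 was the weakest responder in each. Eps8, an actin-regulating adaptor gene, had 1.44, 1.13, 2.92 and 1.52 CPM with LPA, against 8.92, 10.7, 13.5 and 9.87 CPM in Cont, the largest fall of the group (log2 change -2.63 ± 0.23, edgeR adjusted p = 3.7e-08). Hpgd, whose enzyme inactivates prostaglandins, had 6.26, 8.07, 35.9 and 15.5 CPM with LPA and 52.8, 81.7, 88.0 and 64.9 CPM in Cont. LPA replicate 3 lay well above LPA replicates 1 and 2 and did not reach the Cont range. Clec10a, a galactose-binding lectin gene, had 4.33, 4.20, 15.3 and 5.84 CPM with LPA and 26.6, 34.1, 48.4 and 26.2 CPM in Cont, and Fam214a had 3.55, 3.37, 18.7 and 9.05 CPM with LPA and 29.2, 38.6, 43.7 and 33.6 CPM in Cont. Gpr34, a receptor for lysophosphatidylserine, had 4.49, 5.06, 27.6 and 13.4 CPM with LPA and 29.3, 37.7, 43.0 and 41.7 CPM in Cont. For Gpr34 LPA replicate 3 lay just below the lowest Cont value, and the ratio of its change to that of the other replicates was 0.266.

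Samd4, which encodes an RNA-binding repressor of translation, fell with little spread between replicates 1, 2 and 4, at 3.87, 3.75, 5.76 and 3.78 CPM with LPA and 15.1, 18.1, 17.6 and 14.3 CPM in Cont. Slco2b1, an organic anion transporter gene, had 12.6, 11.5, 19.3 and 15.8 CPM with LPA and 45.5, 54.6, 51.1 and 50.8 CPM in Cont, again with a narrow range in both groups. Rnf150 was the most abundant of the falls, with 27.4, 21.0, 64.0 and 33.5 CPM in LPA and 118, 128, 144 and 129.5 CPM in Cont libraries. Irf4, a transcription factor gene of the IL-4 response, was scarce, with 1.09, 0.805, 2.62 and 1.69 CPM in LPA and 4.12, 5.37, 5.39 and 4.28 CPM in Cont libraries. The leukaemia inhibitory factor receptor gene Lifr averaged 9.10 ± 4.75 CPM with LPA and 29.0 ± 4.77 CPM in Cont, and the erythropoietin receptor gene Epor 1.29 ± 0.524 CPM with LPA and 4.02 ± 0.908 CPM in Cont (SD, n = 4 each). The other 4, Mex3b, Adam22, Etl4 and Rasgrp3, had log2 changes of -1.84, -1.68, -1.68 and -1.65. LPA replicate 3 was the highest of the 4 LPA libraries in all 15 falls.

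**Figure D4:**
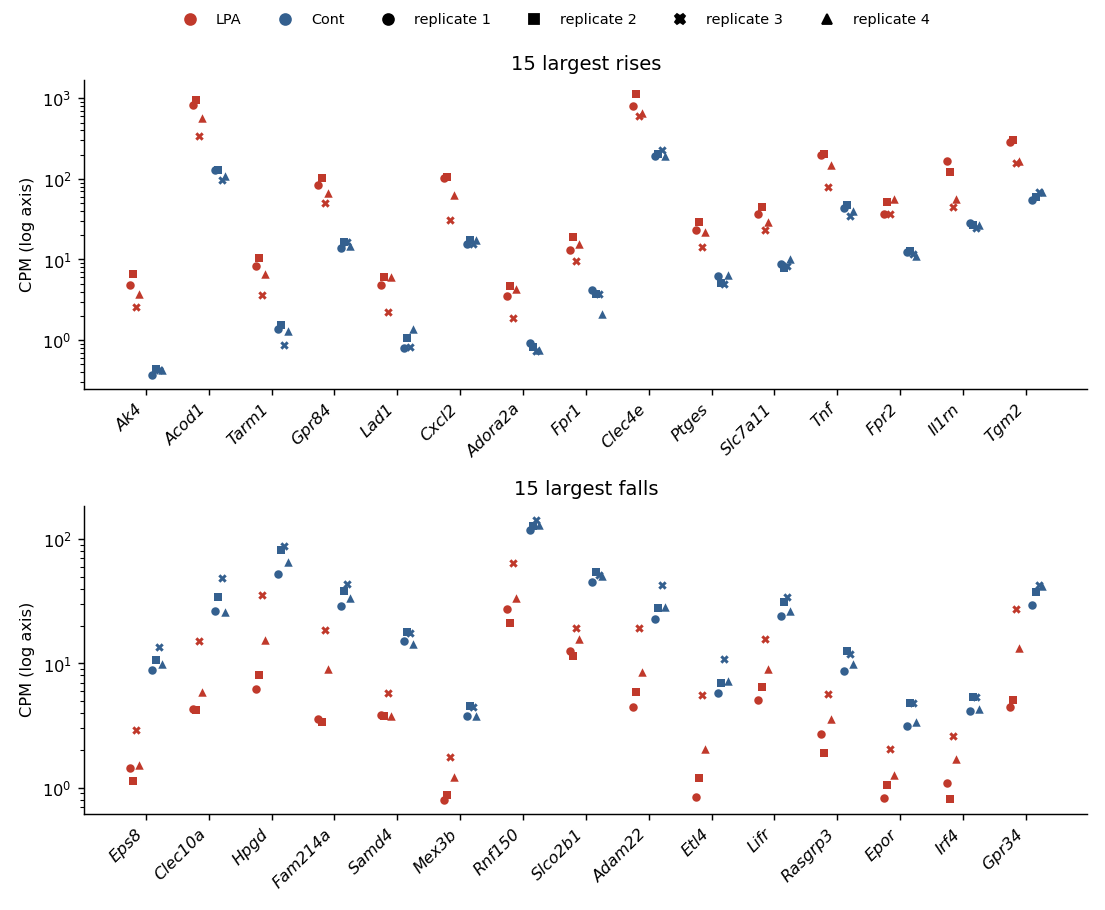
CPM of each WT library (log vertical axes) for the 15 largest rises (top) and the 15 largest falls (bottom), LPA in red left of Cont in blue, with a marker shape for each replicate. The groups do not overlap in any of the 30 genes, as the naming rule required, and replicate 3 (crosses) sits nearest to Cont in most of them.

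Genes were next grouped by role, with the counts of called members read against the 23.5% of all genes that rose and the 21.1% that fell. Median log2 changes of lists stand beside a median of -0.01 over all genes. Of 22 chemokine genes 16 rose and none fell (median 0.83), 7 of them at least 2-fold. Beside Cxcl2, they included the neutrophil and monocyte attractants Cxcl1 (1.80 ± 0.37) and Ccl7 (1.52 ± 0.43) and the platelet chemokines Ppbp (1.66 ± 0.30) and Pf4 (0.92 ± 0.11). Cxcl16, a membrane-bound chemokine that also binds oxidised lipoproteins, had 629.7, 652, 611 and 670.3 CPM with LPA and 441, 431, 403 and 490.1 CPM in Cont. Its replicate 3 differed no less than the others, unlike the list as a whole, whose medians were 0.86, 0.94, 0.39 and 0.60 in replicates 1 to 4. Of 22 cytokine genes 10 rose and 3 fell (median 0.36). Tnfsf9, the 4-1BB ligand gene, had 7.77, 8.17, 4.09 and 5.60 CPM with LPA and 2.68, 2.53, 2.80 and 2.25 CPM in Cont, and Il1b rose by 1.05 ± 0.26. The 3 falls were Il16 (-1.16 ± 0.25), Tnfsf14 (-0.96 ± 0.29) and the anti-inflammatory Il10 (-0.41 ± 0.16), and without both libraries of replicate 2 only 1 fall was called. Il6 (0.59 ± 0.46) and Il12b (-0.04 ± 0.35) were not called. Of 19 growth factor and vasoactive peptide genes 1 rose, Pdgfa, and 5 fell, Tgfb3, Bmp2, Pdgfc, Hgf and Vegfb. That single rise became 4 with the replicate number in the model or without LPA replicate 3, and 0 without LPA replicate 1 or without Cont replicate 1, 2 or 3. For Pdgfc, a platelet-derived growth factor gene, LPA values were 14, 10.6, 7.26 and 7.06 CPM and Cont values 15.8, 15.6, 12.3 and 14.5 CPM.

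Receptors went both ways. Of 51 G protein-coupled receptor genes 18 rose and 13 fell, with a median of 0.01. Beside the large rises above, Adora2b, a second adenosine receptor, rose by 1.47 ± 0.23, the LPA receptor gene Lpar1 by 1.23 ± 0.18 and the niacin and butyrate receptor gene Hcar2 by 0.94 ± 0.22. Falls included the LPA receptor genes Lpar5 (-0.61 ± 0.15) and Lpar6 (-0.47 ± 0.15), the chemokine receptor genes Ccr2 (-0.75 ± 0.24) and Cxcr4 (-0.74 ± 0.22), and the purine receptor genes P2ry1 (-0.76 ± 0.14) and P2ry12 (-0.74 ± 0.15). Without both libraries of replicate 2, 8 falls were called instead of 13. Of 16 genes of RGS proteins, arrestins and receptor kinases, which shorten receptor signals, 2 rose and 4 fell. Rgs10 had 94.7, 93.5, 134 and 124 CPM with LPA and 170.4, 177, 187 and 182 CPM in Cont, and Rgs18 16.6, 16.8, 16 and 15.6 CPM with LPA and 23.0, 24.1, 23.3 and 18.4 CPM in Cont. Both Rgs10 and Rgs18 were separated completely between the groups, while Rgs16 (1.07 ± 0.34) and Rgs3 (0.26 ± 0.10) were the 2 that rose. Those 2 rises became 4 with the replicate number in the model or without LPA replicate 3, 1 without LPA replicate 2 or 4 or Cont replicate 2, and 0 without LPA replicate 1 or Cont replicate 3.

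Lectin and scavenger receptor genes split into 11 rises and 9 falls of 33. The rises included receptors for microbes and modified lipoproteins, among them Marco (1.81 ± 0.38), Olr1 (1.85 ± 0.28) and Clec5a (1.31 ± 0.13). The falls held Cd163, a haemoglobin scavenger receptor gene (-1.61 ± 0.38), Mgl2 (-1.18 ± 0.39), the beta-glucan receptor gene Clec7a (-0.68 ± 0.12) and Trem2 (-0.28 ± 0.11). In the alternative activation list 7 of 16 fell and none rose (median -0.38), and 4 of these, Clec10a, Cd163, Mgl2 and Mrc1, are lectins or scavenger receptors of the list before. Mrc1, the mannose receptor gene, had 551, 569, 663 and 591 CPM with LPA and 1028, 1175, 1205 and 963 CPM in Cont, so every LPA library was below every Cont library. The list's medians were -0.38, -0.45, -0.41 and -0.25, so replicate 3 did not stand apart in it. With the replicate number in the model 1 member rose. Of 13 MHC class II presentation genes 7 fell and 1 rose. Ciita, the transactivator gene of this pathway, had 11.1, 8.83, 24 and 17.2 CPM with LPA and 30.9, 38.3, 37.4 and 38.4 CPM in Cont, and H2-DMb1, which encodes a peptide-loading chain, had 28.0, 24.7, 32.9 and 29.7 CPM with LPA and 37.3, 43.2, 43.6 and 47.6 CPM in Cont. The class II chains themselves, H2-Aa (-0.14 ± 0.10), H2-Ab1 (-0.12 ± 0.11) and H2-Eb1 (-0.21 ± 0.11), were not called. Reads of the H2 family depend on how the counting tool treated shared sequence.

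Among genes of signalling inside the cell, the lists differed in how many members rose. Of 20 genes of NF-kB subunits and their inhibitors 15 rose and none fell (median 0.39), none as much as 2-fold. Tnip1, an inhibitor of the pathway, had 169.9, 190.5, 144 and 186 CPM with LPA and 90.8, 95.3, 104 and 94.1 CPM in Cont, and the kinase gene Ikbke had 358, 401, 318 and 398 CPM with LPA and 233, 234, 237 and 239 CPM in Cont. In both genes the groups were separated and replicate 3 had the smallest LPA value. Of 23 immediate-early transcription factor genes 9 rose and 1 fell. Fos had 292, 240.3, 214 and 224 CPM with LPA and 151, 151, 131 and 143 CPM in Cont, and Fosl1 rose by 1.25 ± 0.46. Egr1 (0.38 ± 0.17) and Nr4a1 (-0.09 ± 0.26) were not called at 4 h, and the fall was Klf2 (-0.81 ± 0.15). This list's medians were 0.55, 0.28, 0.01 and 0.17 in replicates 1 to 4. Of 21 genes of MAP kinase phosphatases and SOCS proteins, which restrain kinase and cytokine signals, 10 rose and 4 fell. Dusp2 had 15.8, 15.1, 8.90 and 13.8 CPM with LPA and 6.28, 6.78, 6.71 and 5.36 CPM in Cont, Dusp4 rose by 1.52 ± 0.25, while Socs6 fell, with 23.9, 21.3, 27.4 and 24 CPM with LPA and 36.2, 36.1, 37.3 and 41.3 CPM in Cont. The 4 falls became 2 without LPA replicate 2 or 4 or Cont replicate 1 or 2. Of 35 interferon-stimulated genes 31 rose and none fell (median 0.56). Ifih1, which encodes the RNA sensor MDA5, had 331, 355, 282 and 309.8 CPM with LPA and 199, 193, 185 and 176 CPM in Cont, and the exonuclease gene Isg20 had 35.5, 36.4, 21.3 and 30.5 CPM with LPA and 16.5, 13.5, 13.1 and 12.9 CPM in Cont. Ifnb1, the interferon-beta gene, was not called (-0.50 ± 0.51). The Ifit and Oas families share sequence, so their single members are less certain.

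Of 39 genes of glycolysis and the hypoxia response 30 rose and 4 fell (median 0.58), and this list holds Ak4. Hk2, a hexokinase gene, had 82.9, 95.7, 73.4 and 78.7 CPM with LPA and 48.7, 44.2, 43.6 and 53.6 CPM in Cont. The lactate exporter gene Slc16a3 rose by 1.78 ± 0.20, the phosphofructokinase gene Pfkl by 1.47 ± 0.17 and Egln3, an oxygen-sensing hydroxylase gene, by 2.72 ± 0.29, while Pfkm fell (-0.56 ± 0.12). Of 26 genes of sterol synthesis and uptake 20 rose and none fell (median 0.84). Hsd17b7, which acts in the later steps of cholesterol synthesis, had 30.2, 26.3, 10.5 and 15.9 CPM with LPA and 8.64, 7.63, 7.42 and 7.34 CPM in Cont. This list spread most widely over replicates, with medians of 1.19, 1.05, 0.35 and 0.51. For Hsd17b7 LPA replicates 3 and 4 were below replicates 1 and 2 and above all Cont libraries. With library totals 2 sterol genes fell, and 1 fell with the replicate number in the model, without LPA replicate 1 or without Cont replicate 3.

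Of 16 itaconate, arginine and polyamine enzymes 9 rose and 2 fell, and with library totals 4 fell. Ass1, which rebuilds arginine from citrulline, had 23.8, 24.6, 18.1 and 16.4 CPM with LPA and 8.49, 9.16, 10.1 and 9.60 CPM in Cont, and the nitric oxide synthase gene Nos2 rose by 1.38 ± 0.36. The ornithine decarboxylase gene Odc1 rose by 0.52 ± 0.15, while Paox (-0.73 ± 0.13) and Sat1 (-0.47 ± 0.09) of polyamine breakdown fell. Of 14 prostanoid genes 4 rose and 7 fell. Ptges, Ptgs2 (0.69 ± 0.28), Ptges3 (0.45 ± 0.09) and Pla2g4a (0.40 ± 0.12) rose. Ptgs1, the constitutive cyclooxygenase gene, had 5.63, 4.80, 6.71 and 4.38 CPM with LPA and 12.3, 13.3, 12.5 and 14.3 CPM in Cont, and the thromboxane synthase gene Tbxas1 fell by a log2 change of -0.65 ± 0.09. Without Cont replicate 4, 2 rises were called instead of 4.

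Of 25 NRF2 target and redox genes 19 rose and 1, Mgst1, fell (median 0.45). Abcc1, a glutathione conjugate exporter gene, had 494, 557, 434 and 502 CPM with LPA and 255, 242, 242 and 268 CPM in Cont, and the pentose phosphate enzyme gene Pgd had 777, 823, 680.5 and 768 CPM with LPA and 482, 472, 468 and 512 CPM in Cont. With the replicate number in the model 2 fell, and none fell without LPA replicate 1, 2 or 4 or Cont replicate 2, 3 or 4. Of 25 genes of the amino acid response 14 rose and 1 fell (median 0.55). Mthfd2, a mitochondrial folate enzyme gene, had 112, 118, 62.1 and 83.3 CPM with LPA and 64.1, 47.9, 31.9 and 36.2 CPM in Cont, and the arginine transporter gene Slc7a1 had 59.4, 62.4, 33.8 and 41.4 CPM with LPA and 33.3, 24.6, 18.2 and 17.1 CPM in Cont. In both genes the Cont libraries also differed, with replicate 1 the highest. Without both libraries of replicate 2, 9 rises were called instead of 14. The single fall, Slc1a5 (-0.24 ± 0.09), was lost without LPA replicate 2 or 4 or Cont replicate 1, 3 or 4, and 2 falls were called with the replicate number in the model.

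The machinery of translation did not move as 1 block. Of 23 genes of cytosolic aminoacyl-tRNA synthetases and their cofactors 16 rose and 2, Qars and Aimp1, fell (median 0.30). Aars had 236, 243, 138 and 174 CPM with LPA and 149, 117, 93.1 and 96.6 CPM in Cont, and Rars had 86.7, 84.5, 60.9 and 70.0 CPM with LPA and 57.3, 54.6, 49.5 and 51.0 CPM in Cont. Of 35 ribosome biogenesis genes 20 rose and 3 fell (median 0.30), with Rrs1 at 21.4, 22.6, 14.2 and 19.4 CPM with LPA and 12.2, 11.6, 11.2 and 11.7 CPM in Cont. The 3 falls were Npm1 (-0.35 ± 0.07), Polr1c (-0.31 ± 0.08) and Ncl (-0.16 ± 0.04). Of 83 cytosolic ribosomal protein genes 1, Rpl7l1, rose and 4 fell, with a median of -0.12. Rpl22 had 105, 113, 125 and 113 CPM with LPA and 126, 129.5, 132 and 124 CPM in Cont, and LPA replicate 3 lay within the Cont range. The number of falls depended on the settings: 33 with library totals, 1 with median-ratio factors, 21 with the 2 groups fitted alone and 47 with the replicate number in the model, where 2 genes rose. With single libraries left out it lay between 0 (without LPA replicate 1 or Cont replicate 3) and 8 (without LPA replicate 3), with 1 without LPA replicate 2 or Cont replicate 2, and 2 without LPA replicate 4 or Cont replicate 4. Many ribosomal protein genes have near-identical pseudogenes, and each of the changes was small. Of 75 nuclear-encoded respiratory chain genes 5 rose and 8 fell, with a median of 0.03. Cycs, the cytochrome c gene, was the largest rise (0.82 ± 0.16), and Ndufa6 had 33.5, 34.1, 38.3 and 40.2 CPM with LPA and 46.3, 46.4, 44.7 and 44.1 CPM in Cont. Library totals gave 2 rises and 16 falls. Without LPA replicate 3, 19 rose. Without LPA replicate 1 or 2 or Cont replicate 3 or 4, 2 rose, and without LPA replicate 4 or Cont replicate 2, 3 rose.

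Genes of the cytoskeleton and of matrix breakdown mostly rose where they changed, while integrin genes went both ways. Of 30 actin cytoskeleton and SRF target genes 17 rose and 1, Eps8, fell. Tpm4, a tropomyosin gene, had 467, 534, 355 and 385 CPM with LPA and 199, 209, 204 and 184 CPM in Cont, and the actin-bundling gene Fscn1 rose by 1.37 ± 0.30. Without LPA replicate 3 or 4, or with the replicate number in the model, 2 fell. Of 19 integrin genes 6 rose and 3 fell, not far from the 23.5% and 21.1% of all genes. The medians of this list were 0.20, -0.08, 0.07 and 0.18 in replicates 1 to 4. Itga5, the fibronectin receptor chain, had 352, 339.9, 201 and 257 CPM with LPA and 136, 125, 115 and 126 CPM in Cont, while Itgb3, a vitronectin receptor chain, fell by a log2 change of -1.29 ± 0.25. Of 22 metalloprotease and inhibitor genes 8 rose and 2 fell. Mmp14, which encodes a membrane-bound matrix metalloprotease, had 406, 489, 360.3 and 407 CPM with LPA and 159, 154, 161 and 174 CPM in Cont. Adam17, the protease that releases TNF from the cell surface, had 773, 849, 893 and 909 CPM with LPA and 634, 665, 655 and 665 CPM in Cont, and replicate 3 was not the weakest there. The 2 falls became 1 without LPA replicate 3 or 4.

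Lysosomal and cell cycle genes changed little. Of 51 genes of lysosome acidification and hydrolases 15 fell and 3 rose, with a median of -0.09. Asah1, the acid ceramidase gene, had 471, 449, 499 and 472 CPM with LPA and 611, 596, 582 and 599 CPM in Cont, and the proton pump gene Atp6v0a2 had 74.1, 73.6, 64.9 and 69.6 CPM with LPA and 54.4, 52.8, 51.5 and 50.7 CPM in Cont. Without LPA replicate 3, 10 rose, and 6 rose with the replicate number in the model. Of 36 cell cycle and replication genes 1 rose and 2 fell. The rise was Ccnd2, a D-type cyclin gene, at 7.20, 7.19, 3.09 and 4.85 CPM with LPA and 2.84, 2.84, 2.00 and 1.80 CPM in Cont, and the falls were Mcm4 and Ccnd3. The falls became 4 with the replicate number in the model or without LPA replicate 3, and 1 without LPA replicate 1 or 2 or Cont replicate 1, 2 or 3. The list's medians were 0.36, 0.10, -0.16 and -0.40, so the replicates went in different directions.

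**Figure D5:**
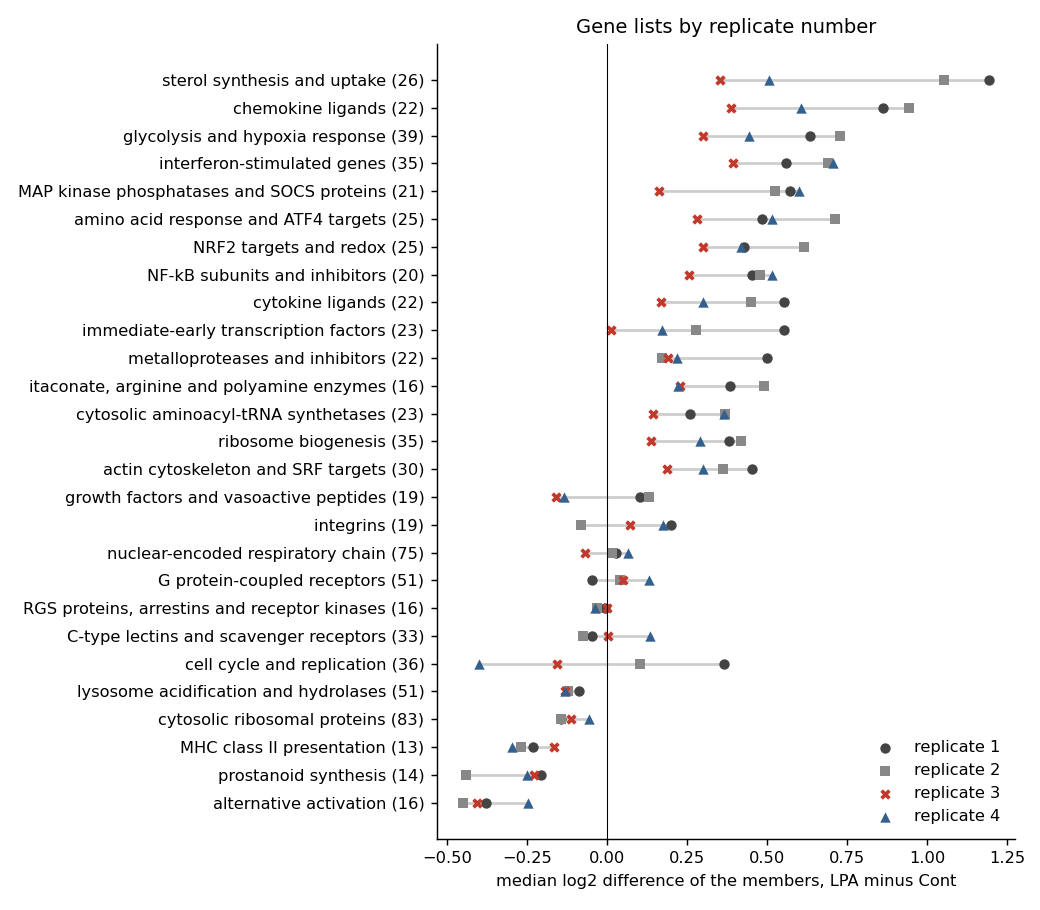
Median log2 difference LPA minus Cont of the members of 27 gene lists (number of members measured in brackets), 1 marker for each replicate and a grey line over their range. Replicate 3 (red crosses) has the smallest median in most lists that rose, and the cell cycle list runs from 0.36 in replicate 1 to -0.40 in replicate 4.

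Markers of other cell types were low or sparse beside the macrophage genes. The 25 macrophage identity genes summed to 55904 to 62444 CPM in LPA libraries and 60198 to 63182 CPM in Cont libraries. Of them 2 rose and 4 fell, with 4 rises when the replicate number was in the model or LPA replicate 3 was left out. The 17 neutrophil and granulocyte precursor genes in the table, of 19 listed, summed to 424 to 470.0 CPM in LPA and 469 to 712 CPM in Cont libraries, so these ranges just overlapped. Their median log2 change was -0.51 and 1, Ltf, fell. The replicate number in the model gave 11 falls and 1 rise, and library totals 5 falls. With single libraries left out there were 5 falls without Cont replicate 4, 4 without Cont replicate 3 and 0 without LPA replicate 1, 2 or 4 or Cont replicate 1 or 2. These sums stand beside the rises of Cxcl2, Fpr1 and Fpr2, which neutrophils also express, and their part in those rises was not tested.

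Of 13 dendritic cell markers 4 were in the table and 3 fell, summing to 346 to 451 CPM in LPA and 357 to 422 CPM in Cont libraries. There 1 further marker rose without LPA replicate 3 or Cont replicate 1. Of 18 T, NK and B cell markers 3 were in the table, at 61.0 to 73.4 CPM in LPA and 82.0 to 98.6 CPM in Cont libraries, and Cd4 fell. The falls became 2 with the replicate number in the model or without LPA replicate 3 or 4, and 0 without LPA replicate 1 or Cont replicate 1 or 2. The single mast cell marker in the table of 11 listed, Hdc, rose and stayed at 2.62 to 4.15 CPM in LPA and 1.40 to 2.49 CPM in Cont libraries. Of 4 megakaryocyte and platelet markers that were measured 2 rose, Pf4 and Ppbp, and Itgb3 fell, with sums of 142 to 214 CPM in LPA and 112 to 141 CPM in Cont libraries. With a stricter filter of at least 50 counts in at least 4 libraries, 1 of these 2 rises remained. Both erythroid genes in the table, Epor and Tfrc, are also used by other cells, and they summed to 249 to 356 CPM in LPA and 223 to 319 CPM in Cont libraries. Of 9 stromal and endothelial markers in the table Kdr and Cdh5 rose, with sums of 37.0 to 46.2 CPM in LPA and 22.8 to 30.0 CPM in Cont libraries. There too 1 of the 2 rises remained with the stricter filter. Kdr had 29.2, 32.9, 21.7 and 29.2 CPM with LPA and 13.5, 12.5, 13.4 and 12.5 CPM in Cont. Of 8 osteoclast markers 1 rose and 2 fell, with 2 rises when LPA replicate 3 was left out or the replicate number was in the model, and their sums were 336 to 458 CPM in LPA and 351 to 467 CPM in Cont libraries. Members of these lists that were not in the table were not analysed here.

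Promoters of genes that rose were read for short motifs of transcription factors. RefSeq promoters of GRCm38.p6 (250 bases before to 50 after a gene's start) were found for 9210 of the 11590 genes, and matches on either strand were counted. Only 1 promoter was read for each gene, the first listed, and 1855 genes had several. Motifs at other starts of a gene were thus not counted. The AP-1 motif TGANTCA was in 15.1% of 159 promoters of genes that rose at least 2-fold, in 4.65% of 86 promoters of genes that fell at least 2-fold, and in 4.86% of all 9210. For the hypoxia motif ACGTG these shares were 23.9%, 14% and 26.4%, and for the kB consensus 13.2%, 11.6% and 10.0%. By list, the kB consensus was in 56.3% of 16 promoters of NF-kB subunits and inhibitors. The hypoxia motif was in 56.8% of 37 promoters of the glycolysis and hypoxia list, and the interferon-stimulated response element in 65.4% of 26 promoters of interferon-stimulated genes, where 3.42% of all promoters held it. The antioxidant motif TGACNNNGC was in 35.0% of 20 promoters of NRF2 target genes and in 15.1% of all. No test was made of these shares. The lists hold many known targets of these factors, a match is not a binding site, and the antioxidant and AP-1 motifs share their first letters, so 1 stretch can match both.

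The promoters of 4 genes described above are given as examples, picked because each holds a motif that was searched. Those of Tnf, Ak4 and Isg20 held no match to any motif searched. Matches are in capitals.
Cxcl2, chr5:90903649-90903948, plus strand, kB consensus: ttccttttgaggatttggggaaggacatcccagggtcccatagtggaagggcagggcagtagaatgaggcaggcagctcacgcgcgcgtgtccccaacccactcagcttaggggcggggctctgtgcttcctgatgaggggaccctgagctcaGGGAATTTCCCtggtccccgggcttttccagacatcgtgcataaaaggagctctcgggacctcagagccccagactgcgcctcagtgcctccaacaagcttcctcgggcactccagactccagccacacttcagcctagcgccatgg
Il1rn, chr2:24336610-24336909, plus strand, AP-1 motif: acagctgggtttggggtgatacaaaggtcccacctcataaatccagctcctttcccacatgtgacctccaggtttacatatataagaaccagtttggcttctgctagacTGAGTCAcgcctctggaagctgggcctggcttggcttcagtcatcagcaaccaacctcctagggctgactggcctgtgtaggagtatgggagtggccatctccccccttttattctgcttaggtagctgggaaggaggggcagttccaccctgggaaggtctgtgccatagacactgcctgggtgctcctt
Hk2, chr6:82774405-82774704, minus strand, hypoxia motif read on the other strand: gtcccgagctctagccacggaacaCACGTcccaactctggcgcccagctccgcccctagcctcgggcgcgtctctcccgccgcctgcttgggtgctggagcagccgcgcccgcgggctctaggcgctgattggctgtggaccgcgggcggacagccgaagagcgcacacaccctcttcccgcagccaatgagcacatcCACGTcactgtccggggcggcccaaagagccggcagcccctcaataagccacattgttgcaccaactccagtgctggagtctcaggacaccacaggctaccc
Ifih1, chr2:62646206-62646505, minus strand, interferon motif: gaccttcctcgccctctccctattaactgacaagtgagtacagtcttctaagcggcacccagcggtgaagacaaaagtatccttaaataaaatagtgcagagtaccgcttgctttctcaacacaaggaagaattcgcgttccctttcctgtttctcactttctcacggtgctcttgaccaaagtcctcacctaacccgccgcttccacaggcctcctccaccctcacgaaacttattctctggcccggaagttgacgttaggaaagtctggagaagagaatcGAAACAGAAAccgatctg

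The same genes were compared with KO cells in 1 model over all libraries. The LPA effect differed between WT and KO in 3301 genes (28.5%), 1828 (15.8%) with the higher effect in WT and 1473 (12.7%) with the lower, while scaling by total counts gave 1325 higher and 1981 lower. In KO cells LPA changed 304 genes (2.62%). Of the 324 genes that changed at least 2-fold in WT, 245 passed the test of the difference, 244 of them with the larger effect in the direction of the WT change. The 202 rises had a median log2 change of 1.27 in WT and -0.02 in KO, and the 122 falls of -1.22 in WT and -0.15 in KO. These genes were chosen for their change in WT, and the same WT libraries enter the difference, so the choice partly fixes these counts, directions and medians. Of the 30 named rises and falls 27 passed. Tgm2 did not, with a log2 change of 1.86 in WT and 1.33 in KO (difference 0.53 ± 0.29, edgeR adjusted p = 0.17). Clec10a (difference -1.04 ± 0.54, edgeR adjusted p = 0.16) and Etl4 (difference -1.36 ± 0.52, edgeR adjusted p = 0.055) did not pass either, and both passed with the replicate number in the model or without WT LPA replicate 3. Of the 27 that passed, Hpgd lost the test under 14 alternatives, Lifr under 12, Rasgrp3 under 9 and Adam22 under 7. Adora2a and Irf4 lost it under 3 each. Slco2b1 had a difference of -1.83 ± 0.22 (edgeR adjusted p = 1.5e-05), with -1.77 in WT and 0.06 in KO. The WT libraries with LPA or untreated held 31985119 to 46697165 counts and the KO ones 15557011 to 21461866, and with all libraries thinned to the same depth 2840 genes differed between WT and KO. Lanes also followed genotype, so genotype and lane cannot be told apart.

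The LPS values of these genes in WT cells stand beside those with LPA, and their difference was not tested. The 202 genes that rose at least 2-fold with LPA had a median log2 change of 1.27 with LPA and 3.40 with LPS, and the 122 falls of -1.22 with LPA and -3.48 with LPS. Both comparisons share the 4 Cont libraries, and LPS changed 84.2% of all genes, so nothing is read from their likeness.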

How the data were processed

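RNA from mouse bone marrow-derived macrophages was profiled as stranded mRNA libraries. Reads were aligned with STAR 2.5.2a to mm10, per the submitters' processing notes. Which program counted the reads, with which strand setting and annotation, is not given in the sources used here. The authors deposited 1 table of raw counts per gene. It held 11590 genes, all of them at 0.5 CPM or more in at least 6 libraries, so it had been filtered before deposition. The 9 rows without a symbol were kept in the tests.

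Counts were tested with edgeR 4.0.16 (R 4.3.3, TMM scaling, robust quasi-likelihood F test) in 1 model with a mean for each of 6 groups over 24 libraries (18 residual degrees of freedom). P-values were adjusted by Benjamini-Hochberg over all genes, and calls needed an adjusted p below 0.05. Values after ± are standard errors for log2 changes and standard deviations for CPM. CPM used TMM-scaled library sizes, and log2 CPM a prior count of 2. The script was tested on simulated data.

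Replicate numbers were treated as pairing the WT libraries for differences by replicate and for libraries left out by number. The main test held no term for the number, so its p-values and standard errors ignore the pairing. With that term 6150 genes were called instead of 5165. The pairing was taken because deviations of every same-numbered LPA and Cont library from their group means correlated above 0.1. Their r was 0.506, 0.221, 0.626 and 0.211 for numbers 1 to 4. Libraries of different numbers correlated at -0.603 to 0.323, and LPA replicate 4 correlated more with Cont replicate 1 (0.323) than with Cont replicate 4. The labels do not say what a number shares.

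Genes were named by rule: among called genes with an official symbol, at least 2 CPM and non-overlapping groups, the 15 largest rises and 15 largest falls; from each list the 2 members with the smallest p (1 for cell markers); the 6 lowest and 6 highest replicate 3 ratios; Gpr35 and Tnf. Other list members were named after their values were seen. A gene that the rule picked is not reported here. The members and lists were chosen with earlier results of these data known. Alternatives were DESeq2 1.42.0, other scalings and filters, the 2 groups alone, thinned counts, the replicate number as a term, and leaving out libraries.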

Additional observations from a re-analysis of the deposited data

Results flagged for a closer look

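Within groups of 4 libraries, a value was singled out when its gap to the nearest other value exceeded the 95% critical share of the range in Dixon's test. Of 222 groups examined 10 (4.50%) had such a value, where chance gives about 1 in 20. In LPA libraries these were replicate 3 for Clec10a (15.3 CPM) and for Samd4 (5.76 CPM), both nearer to Cont than the other LPA libraries. In Cont libraries they were replicate 2 for Maff (3.77 CPM), replicate 1 for Ciita (30.9 CPM) and for Isg20 (16.5 CPM), and replicate 3 for Sox4 (3.76 CPM).

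Among list medians of the log2 difference LPA minus Cont, replicate 3 stood apart for MAP kinase phosphatases and SOCS proteins (0.16), dendritic cell markers (-0.21) and megakaryocyte and platelet markers (0.10), each closer to 0 than the other replicates. Replicate 1 stood apart for metalloproteases and inhibitors, with a median of 0.50.

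The LPA effect differed between WT and KO in 3301 genes by edgeR's test of the difference. Among the 5 largest rises, the effect in WT minus that in KO was 2.46 for Ak4, 2.81 for Acod1, 2.35 for Tarm1, 2.06 for Gpr84 and 2.16 for Lad1 on the log2 scale. Among the largest falls it was -1.91 for Eps8, -1.53 for Hpgd, -1.71 for Fam214a and -1.46 for Samd4. For Hpgd the test of the difference no longer passed under 14 of the alternatives.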

How the results depend on the processing

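LPA changed 4430 to 6150 genes in WT under the 8 alternatives that kept all WT LPA and WT Cont libraries, beside 5165. No called gene changed sign under any alternative. With the replicate number as a block for pairing, 6150 genes changed, 334 of them at least 2-fold, and 4328 differed between WT and KO. The block ended none of the calls of the named genes. Leaving out single libraries gave 3792 to 6083 changed genes, and leaving out both libraries of a replicate number gave 3118 to 5413. Genes changed at least 2-fold numbered 247 (without LPA replicate 2) to 516 (without LPA replicate 3) with single libraries left out, and 238 to 461 with both of a number left out, beside 324. Genes that differed between WT and KO numbered 2259 (without WT LPA replicate 2) to 4632 (without WT LPA replicate 3). Of the named genes Hspa1b, Ltf, Cd4, Rpl22 and Pdgfc lost the call under 1 to 9 alternatives. The test between WT and KO was lost under 14 alternatives for Hpgd, 12 for Lifr, 9 for Rasgrp3, 7 for Adam22 and 3 each for Adora2a and Irf4. Of the counts of list members under the alternatives, 168 moved by over 1.5 times, or to or from 0, and 1272 did not. The cause of these moves was not tested. Scarce transcripts limit the precision, with a median standard error of 0.178 in the lowest abundance class.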
